A study of Mus musculus with 8 samples.

Results

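All 8 libraries of the study, 4 from sarcoma cells in which Mif was targeted and 4 from matched control cells, were compared in 1 fit with the targeting system as a term. Mif was targeted by Cas9 and a guide RNA (sgMif, 2 libraries, genotype given as Mif knockout) or by a short hairpin RNA (shMif, 2 libraries, given as Mif knockdown). The controls carried a non-targeting guide (sgSCR, 2 libraries) or a control hairpin (shSCR, 2 libraries), both given as Mif wild type. All 4 groups shared 1 background, a C57BL/6 mouse soft-tissue sarcoma line made from mesenchymal stem cells by deletion of p53 and overexpression of Ccne1. The cells were grown as subcutaneous tumours in recipient mice on polyurethane scaffolds, and they were sorted from the digested tumours on a fluorescent marker before bulk RNA sequencing. The age and Mif genotype of the recipient mice, the number of tumours behind each library and the number of sarcoma clones are not stated in the sources used here. Members of the comparison were taken by sample title. Of 16309 genes tested, 7162 (43.9%) had the same sign of change in both systems, and these shared changes are the subject here.

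Mif encodes macrophage migration inhibitory factor, a small secreted cytokine with tautomerase activity. It binds the surface protein CD74, which signals together with CD44, and it also acts on the chemokine receptors CXCR2, CXCR4 and ACKR3. In tumours it is known for effects on growth signalling inside the cancer cells and on the macrophages around them. A guide with Cas9 acts by cutting the gene and a hairpin by decay of its transcript, and the joint comparison asks which changes both share.

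Depth was 19042235 to 51819308 reads per library. Mesenchymal markers summed to 28230 to 43477 CPM (counts-per-million units, normalised between libraries), against 229 to 829 CPM for 23 macrophage markers and 65.9 to 314 CPM for 14 endothelial markers. In such bulk RNA, fewer cells of a type and less RNA per cell cannot be told apart. Libraries sgMif 2, labelled shMif 2 and shSCR 2 had 380 to 553 CPM over 1406 olfactory receptor genes, and the other 5 had 1330 to 2544 CPM. shSCR 1 also stood apart in its share of reads on mitochondrial genes, 1.62% against 2.12 to 2.65% in the other 7. Values without shSCR 1 and joint values from the 5 libraries above 1000 CPM stand beside the medians of the lists with a shared direction. Those 5 are sgMif 1, sgSCR 1, sgSCR 2, labelled shMif 1 and shSCR 1. Their hairpin side is therefore labelled shMif 1 against shSCR 1 alone, and their fit has 2 residual degrees of freedom.

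As the check of the labels, the level of Mif was read in each library (ENSMUSG00000033307, on the minus strand of chromosome 10 at 75859353 to 75860240, mm10). It had 221 and 222 CPM in the sgMif libraries, against 377 and 455 CPM in sgSCR. It had 277 and 222 CPM in the libraries labelled shMif, against 170 and 375 CPM in shSCR. Both sgMif values lay below both sgSCR values, whereas the hairpin groups overlapped. On the log2 scale the joint difference was -0.52 ± 0.26 (SE; adjusted p = 0.678 by edgeR), made of -0.91 in the guide system and -0.13 in the hairpin system. The joint value was -0.19 within the 5 libraries above 1000 CPM and -0.78 without shSCR 1. The transcript thus does not bear out the knockdown label, and a frameshift made by Cas9 can leave transcript levels as they were, so how much MIF protein remained was not measured in either arm. Among the partners of MIF, Ackr3, a scavenging chemokine receptor, had 62.7 and 69.9 CPM in sgMif, against 128 and 146 CPM in sgSCR. Labelled shMif had 125 and 108 CPM of Ackr3, against 113 and 151 CPM in shSCR, and these overlapped. Of 8 genes for MIF, its homologue and its receptors, 0 were separated from the controls the same way in both systems (8.75% of all genes).

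The joint fit asked which genes moved the same way whenever Mif was targeted. By edgeR's quasi-likelihood test with Benjamini-Hochberg adjustment, 0 of 16309 genes passed an adjusted p of 0.05 (0%), and the smallest adjusted p was 0.0616. At an unadjusted p under 0.05 there were 697 genes higher (4.27%) and 609 lower (3.73%) with Mif targeted. DESeq2 called 147 genes higher (0.901%) and 133 lower (0.816%), and all 280 had the same sign in both systems. This fit gives both systems 1 common effect, which favours such genes, so that count is not a test of sharing. The mean of the separate contrasts comes from a fit in which the systems may differ. Opposite effects cancel in a mean, so it too favours genes with a shared sign and is not a test of sharing. It called 32 higher (0.196%) and 34 lower (0.208%), of which 60 had the same sign in both (43.9% of all genes). Leaving out 1 library, an alternative added after the values were seen, changed these counts to 515 and 191 without shSCR 2, to 5 and 3 without shSCR 1, and to at most 1 of each without any of the other 6. With counts scaled by transcript length the mean of the contrasts called 2 higher and 0 lower. The number of calls thus depended on the model and on the counts used. Genes described below did not pass the joint test unless a test is named that they passed.

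The effects estimated in the 2 systems were not positively correlated over all genes. Whether the spread between the 2 libraries of a group hid shared effects was not tested. Across 16309 genes the log2 fold changes of the guide and the hairpin had a Pearson r of -0.13 and a Spearman rho of -0.16; the systems share no library, but all genes of a system share its 4 libraries. A gene is called separated here when both Mif-targeted libraries lay on the same side of both control libraries within each system. This held for 1427 genes (8.75%), 745 of them higher (4.57%) and 682 lower (4.18%) with Mif targeted. A further 2131 genes (13.1%) were separated in opposite directions, 1301 of them (7.98%) higher with the Mif guide and lower with the hairpin, and 830 (5.09%) the reverse. The test of the difference, guide effect minus hairpin effect, passed for 15 genes (0.092%), 1 positive (0.00613%) and 14 negative (0.0858%). With each system fitted alone, 223 genes passed in the guide system (1.5%); in the fit of all 4 groups, leaving out 1 guide library left 0 to 2 calls in this system. Of these, 132 had the same sign in the hairpin system, where 0 passed and 37 had an unadjusted p under 0.05 in the same direction, against 21 in the opposite one. The same-sign share over all genes tested in both was 44.7%.

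**Figure D1:**
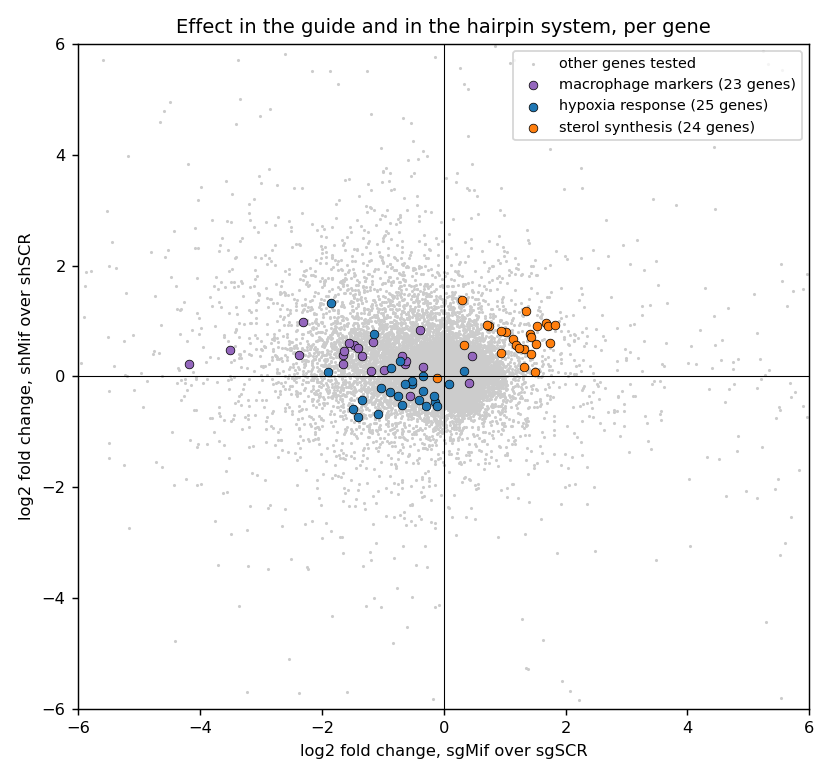
Log2 fold change of each gene for sgMif over sgSCR (horizontal) and for labelled shMif over shSCR (vertical), with 3 gene lists coloured and all other genes in grey; 193 genes beyond 6 on either axis are not drawn. Sterol synthesis genes sit at the upper right, with 23 of 24 positive in both systems, against 23.2% of all genes. Hypoxia genes lie mostly at the lower left, and 20 of 23 macrophage markers have opposite signs, against 56.1% of all genes.

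Of the 47 gene lists examined, sterol synthesis had the most members separated the same way in both systems. Cells make cholesterol from acetyl-CoA through mevalonate, farnesyl diphosphate, squalene and lanosterol, and the transcription factor SREBP2 turns on the genes of this route, with the factor NF-Y at CCAAT boxes beside it, when sterols in the endoplasmic reticulum are low. Of 24 genes tested, 23 were positive in both systems, against 23.2% of all genes, and 1 was negative in both, against 20.7%. Of these 24, 17 were separated higher in both systems, against 4.57% of all genes, and 20 had a joint unadjusted p under 0.05, against 4.27%. DESeq2 called 18 of 24 higher, against 0.901% of all genes, and the mean of the contrasts called 10 higher, against 0.196%. The 10 became 17 without shSCR 2 and 0 without any 1 of the other 7 libraries. By that mean, 0 of 24 were called higher with counts scaled by transcript length and 7 with protein-coding transcripts only. In the guide system 12 of 24 passed edgeR's adjusted p (0.368% of all genes higher). This count was 0 when any 1 of the 4 guide libraries was left out, 3 to 17 when a hairpin library was left out, and 2 with counts scaled by transcript length. In the hairpin system 0 of 24 passed (0.0184%), and 15 of 24 were higher at an unadjusted p under 0.05 (4.18%). The median log2 fold change was 0.91 in the joint fit, 1.32 with the guide and 0.69 with the hairpin, and the joint median was 0.97 within the 5 libraries above 1000 CPM.

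RefSeq promoter windows were read for these genes, of which 16 of 24 matched. The letters CCAAT were searched on both strands in the 250 bases before each start. They were in 15 of 19 windows (78.9%), against 33.8% of 32851 windows of that length over all genes. Among windows of the genes tested the share was 35.3%. The sterol response element TCACNCCAC, also searched on both strands, was in 1 of 19 windows, that of Hmgcs1. This compares with 1.05% of all windows and 0.958% of windows of the genes tested. Windows of Hmgcs1, Mvd and Sc5d are shown because these genes span the start, middle and end of the route and their windows hold no annotated exon; capitals mark CCAAT or its reverse complement ATTGG, 5′ to 3′ on the gene's strand, build GRCm38.p6.
Hmgcs1, chr13:119690101-119690350, plus strand: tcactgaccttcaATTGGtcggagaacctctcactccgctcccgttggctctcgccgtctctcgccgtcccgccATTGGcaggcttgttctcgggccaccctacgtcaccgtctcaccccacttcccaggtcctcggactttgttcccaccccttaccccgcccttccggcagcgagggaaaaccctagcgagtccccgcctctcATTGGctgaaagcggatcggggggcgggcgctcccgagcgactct
Mvd, chr8:122443423-122443672, minus strand: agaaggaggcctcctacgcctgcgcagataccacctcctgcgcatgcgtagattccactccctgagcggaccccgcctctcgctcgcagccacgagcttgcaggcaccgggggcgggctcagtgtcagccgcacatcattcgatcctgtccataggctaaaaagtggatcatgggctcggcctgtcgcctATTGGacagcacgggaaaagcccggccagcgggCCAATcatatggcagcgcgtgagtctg
Sc5d, chr9:42264301-42264550, minus strand: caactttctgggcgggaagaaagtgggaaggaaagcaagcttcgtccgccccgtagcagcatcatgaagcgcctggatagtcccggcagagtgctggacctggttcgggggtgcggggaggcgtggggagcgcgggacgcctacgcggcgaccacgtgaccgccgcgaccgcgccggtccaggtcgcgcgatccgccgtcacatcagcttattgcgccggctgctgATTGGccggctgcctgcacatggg
Windows of Ebp and Pmvk hold no annotated exon either and had 2 matches and 1 match. Ebp was not higher in either system, and Pmvk overlapped its controls in the hairpin system. A match of these letters is a description of the window and does not show that a factor was bound.

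At the head of the route, Acat2, which joins acetyl-CoA units, had 119 and 128 CPM in sgMif, against 39.3 and 34.1 CPM in sgSCR. Labelled shMif had 41.4 and 53.4 CPM of Acat2, against 29.8 and 32.7 CPM in shSCR. All 4 targeted libraries lay above their own controls, by a smaller margin with the hairpin. Hmgcs1, the synthase of HMG-CoA, had 300.2 and 374 CPM in sgMif, against 143 and 93.5 CPM in sgSCR, and 108 and 154 CPM in labelled shMif, against 83.5 and 91.0 CPM in shSCR. Mvk, Mvd, Idi1 and Fdps, which carry mevalonate on to farnesyl diphosphate, had joint log2 fold changes of 0.82 to 1.37. Pmvk, the kinase between them, was 1.49 ± 0.17 with the guide and 0.08 ± 0.17 with the hairpin, where its groups overlapped.

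In the squalene steps, Sqle, the squalene epoxidase, had a log2 fold change of 1.14 ± 0.22 with the guide and 0.68 ± 0.22 with the hairpin (SE), and Lss, which closes the ring to lanosterol, at 1.32 ± 0.23 and 0.50 ± 0.23. Sc5d and Msmo1 of the later steps were among the 4 sterol genes with the smallest joint p. Msmo1, a sterol demethylase, had 176 and 215 CPM in sgMif, against 80.0 and 65.9 CPM in sgSCR, and 80.4 and 105 CPM in labelled shMif, against 50.1 and 58.2 CPM in shSCR. Sc5d, the lathosterol desaturase, had 40.6 and 35.8 CPM in sgMif, against 20.2 and 19.8 CPM in sgSCR, and 21.5 and 26.1 CPM in labelled shMif, against 12.1 and 14.95 CPM in shSCR. Both genes were separated in each system, at joint log2 fold changes of 1.10 ± 0.17 for Msmo1 and 0.87 ± 0.13 for Sc5d. Ebp, a sterol isomerase of the same stretch, was the exception, at -0.11 ± 0.18 with the guide and -0.03 ± 0.18 with the hairpin.

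Genes of sterol control and transport lay on the same side. Insig1 (chromosome 5, 28071363 to 28078662, plus strand), which holds SREBP in the endoplasmic reticulum and is itself an SREBP target, had 113 and 96.0 CPM in sgMif, against 58.7 and 44.1 CPM in sgSCR. Labelled shMif had 45.1 and 49.7 CPM of Insig1, against 25.4 and 28.9 CPM in shSCR. Its joint log2 fold change of 0.91 ± 0.13 (SE, edgeR adjusted p = 0.133) was nearly equal in the systems, 1.02 and 0.80. The sterol carrier Stard4 stood at 1.54 ± 0.27 with the guide and 0.91 ± 0.26 with the hairpin. The hairpin libraries held less Insig1 than the guide libraries of the same Mif status, and this offset cannot be told apart from a difference between the 2 experiments. In the test of a difference between the systems 0 of the 24 genes passed (0.092% of all genes). The hairpin median of the list was 0.56 without shSCR 1 and 0.43 without labelled shMif 2, and over all 8 leave-one-out fits the joint median ran from 0.79 to 1.09.

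**Figure D2:**
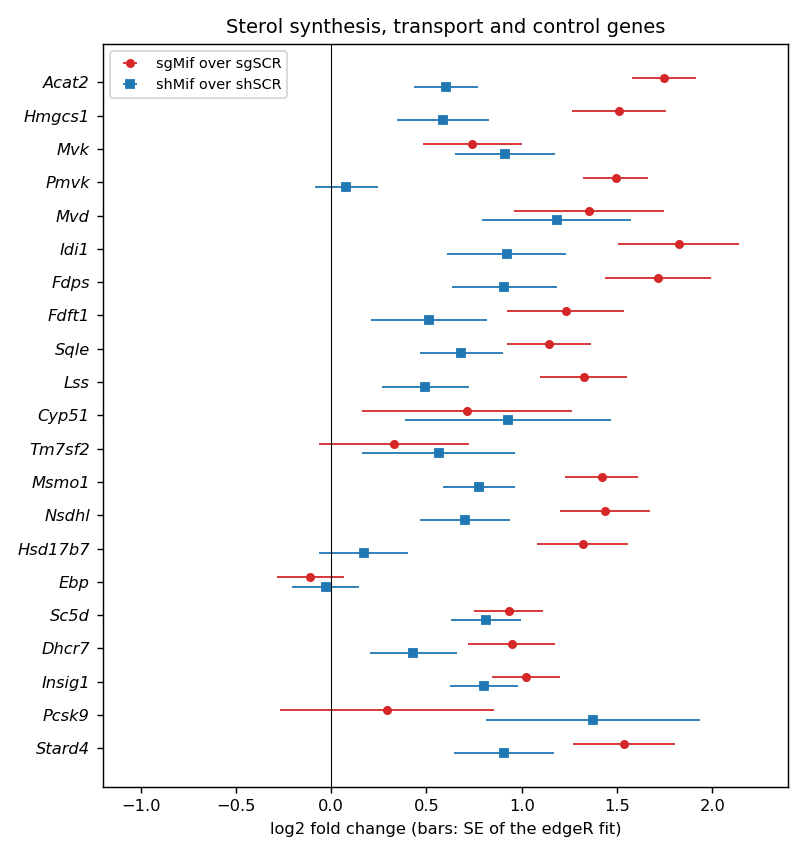
Log2 fold change for sgMif over sgSCR (circles) and for labelled shMif over shSCR (squares) of 21 of the 24 sterol genes in pathway order, with transport and control genes last; bars are the SE of the edgeR fit. Points lie right of 0 in both systems for all but Ebp, and the guide value is the larger one for most of the pathway.

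Fatty acid synthesis and desaturation, which the related factor SREBP1 controls, leaned the same way with fewer members. Of 15 genes, 11 were positive (23.2% of all genes) and 0 negative (20.7%) in both systems. Of these 15, 4 were separated higher (4.57%) and 9 were higher at an unadjusted p under 0.05 (4.27%). The joint median was 0.41, and 0.46 within the 5 libraries above 1000 CPM. The hairpin median was 0.33, but 0.10 without shSCR 1 and 0.12 without labelled shMif 2. Scd1, the stearoyl-CoA desaturase, had 125 and 132 CPM in sgMif, against 51.5 and 52.8 CPM in sgSCR, and 86.5 and 97.0 CPM in labelled shMif, against 54.7 and 65.3 CPM in shSCR. The other separated genes were Fads1 and Fads2, which desaturate polyunsaturated fatty acids, and the elongase Elovl1. Fasn, the fatty acid synthase, was 0.89 ± 0.17 with the guide and 0.25 ± 0.17 with the hairpin, where it overlapped. Plin2, which coats lipid droplets, went the other way. It had 199 and 148 CPM in sgMif, against 329 and 391 CPM in sgSCR, and 434 and 404 CPM in labelled shMif, against 918 and 703 CPM in shSCR, a joint level 2.005-fold lower (adjusted p = 0.133 by edgeR).

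Genes of the hypoxia response and of glycolysis were mostly lower. Under low oxygen the factor HIF1 binds the letters ACGTG in promoters and enhancers and turns on glucose uptake, glycolysis, angiogenic and collagen-modifying genes. Of 25 hypoxia genes, 17 were negative (20.7% of all genes) and 1 positive (23.2%) in both systems. Of these 25, 8 were separated lower (4.18%) and 11 were lower at an unadjusted p under 0.05 (3.73%). At either measure 0 were higher. DESeq2 called 7 of 25 lower (0.816%). In the hairpin system alone 6 of 25 were lower (5.08% of all genes) and 2 higher (4.18%) at an unadjusted p under 0.05. Slc2a1, the glucose transporter GLUT1, had 364 and 397 CPM in sgMif, against 759 and 852 CPM in sgSCR, and 977 and 925 CPM in labelled shMif, against 1819 and 1236 CPM in shSCR. Ndrg1, a stress-response gene induced by hypoxia, had 382 and 382 CPM in sgMif, against 948 and 1072 CPM in sgSCR, and 804 and 771 CPM in labelled shMif, against 1638 and 996 CPM in shSCR. In both genes the groups did not overlap and shSCR 1 was the highest of the hairpin libraries. The other separated members included Ero1l, an oxidase of the endoplasmic reticulum, Bnip3, a mitophagy receptor, the transcriptional repressor Mxi1 and the peptide hormone gene Adm. The list median was -0.36 in the joint fit, -0.68 with the guide and -0.27 with the hairpin, and -0.20 with the hairpin without shSCR 1. Within the 5 libraries above 1000 CPM it was -0.69, and without sgMif 1 it was -0.25.

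Promoter windows matched 17 of the 25 hypoxia genes. The letters ACGTG, on either strand, were in 12 of 23 windows (52.2%), against 16.6% of all windows of the same 250 bases. Among windows of the genes tested the share was 20.1%. Where the letters form the palindrome CACGTG, a site on each strand overlaps and both were counted. Windows of Mxi1 and P4ha2, a collagen prolyl hydroxylase with a joint log2 fold change of -0.55 ± 0.16, are shown because, of the 4 windows with these letters and no annotated exon, theirs belong to the genes with the smallest joint p; capitals mark these letters.
Mxi1, chr19:53329163-53329412, plus strand: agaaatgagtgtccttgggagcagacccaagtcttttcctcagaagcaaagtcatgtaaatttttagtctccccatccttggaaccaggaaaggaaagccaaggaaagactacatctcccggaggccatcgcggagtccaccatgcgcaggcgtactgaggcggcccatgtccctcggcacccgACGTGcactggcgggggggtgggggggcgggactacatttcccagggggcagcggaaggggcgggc
P4ha2, chr11:54100674-54100923, plus strand: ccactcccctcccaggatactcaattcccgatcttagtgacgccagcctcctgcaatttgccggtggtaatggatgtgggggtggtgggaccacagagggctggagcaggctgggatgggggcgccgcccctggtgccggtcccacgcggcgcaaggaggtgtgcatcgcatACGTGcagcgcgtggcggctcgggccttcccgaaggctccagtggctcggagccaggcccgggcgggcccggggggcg
Both windows are from RefSeq on GRCm38.p6, and the letters alone do not show binding.

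Of 18 glycolysis genes, 15 were negative (20.7% of all genes) and 0 positive (23.2%) in both systems, and 5 were separated lower (4.18%). Hk2, the inducible hexokinase, had 108 and 133 CPM in sgMif, against 204 and 242 CPM in sgSCR, and 170 and 191 CPM in labelled shMif, against 363 and 216 CPM in shSCR. The phosphofructokinase genes Pfkp and Pfkl and the lactate dehydrogenase gene Ldha were also separated, at joint log2 fold changes of -0.62 ± 0.15, -0.34 ± 0.12 and -0.28 ± 0.11. The median was -0.26 with the guide and -0.31 with the hairpin, and the joint median was -0.27, or -0.35 within the 5 libraries above 1000 CPM. The hairpin median was -0.20 without shSCR 1, and the guide median was -0.15 without sgMif 1 and -0.41 without sgMif 2.

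**Figure D3:**
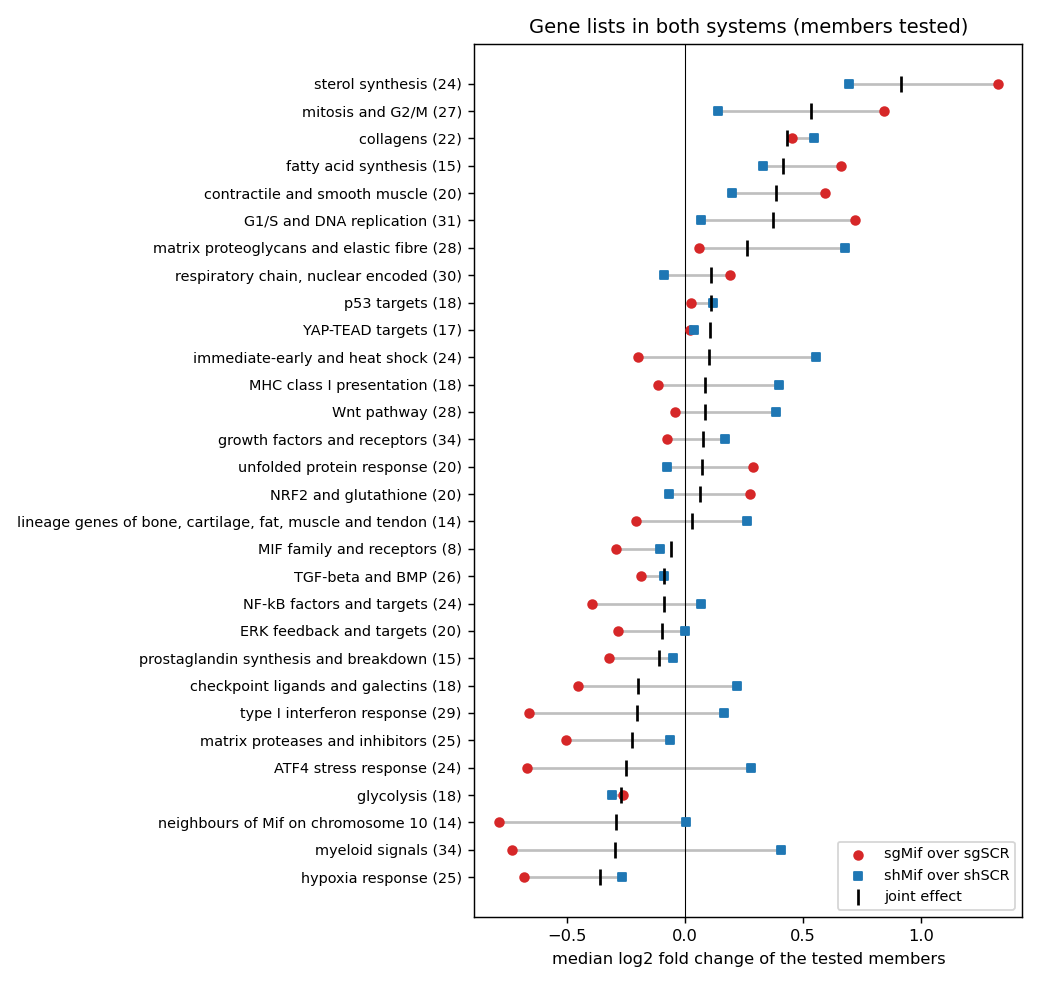
Median log2 fold change of the tested members of each gene list for sgMif over sgSCR (circles), for labelled shMif over shSCR (squares) and in the joint fit (bars), with the number of tested members in brackets. Sterol synthesis, fatty acid synthesis and collagens lie right of 0 and hypoxia and glycolysis left of 0 in both systems, whereas ATF4 stress response and myeloid signals have a circle and a square on opposite sides.

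Cell cycle genes were mostly positive in both systems, but their hairpin medians were near 0 and changed sign with the libraries used. Of 27 mitosis genes, 20 were positive (23.2% of all genes) and 0 negative (20.7%) in both systems. Of these 27, 11 were separated higher (4.57%) and 18 were higher at a joint unadjusted p under 0.05 (4.27%). The median was 0.84 with the guide and 0.14 with the hairpin, where 6 of 27 were higher at an unadjusted p under 0.05 (4.18%). The test of a difference between the systems was passed by 0 of 27 (0.092% of all genes). The hairpin median was -0.03 without labelled shMif 2, 0.34 without labelled shMif 1 and 0.17 without shSCR 1. The joint median was 0.53 with all libraries, 0.34 without sgSCR 2 and 0.47 within the 5 libraries above 1000 CPM. Kif20a, a kinesin of cell division, had 113 and 117 CPM in sgMif, against 72.3 and 60.0 CPM in sgSCR, and 62.1 and 78.6 CPM in labelled shMif, against 49.5 and 48.2 CPM in shSCR. Aurkb and Plk1, kinases of mitosis, and Cdc20, the activator of the anaphase-promoting complex, were separated likewise at 0.65 to 0.75 in the joint fit. Of 31 genes for G1/S and DNA replication, 21 were positive in both systems (23.2% of all genes) and 4 were separated higher (4.57%), with medians of 0.72 with the guide and 0.07 with the hairpin, where 0 had an unadjusted p under 0.05 in the higher direction. That hairpin median was -0.08 without labelled shMif 2, -0.01 without shSCR 1 and 0.15 without labelled shMif 1. The joint median was 0.37, and 0.40 within the 5 libraries above 1000 CPM. Odc1, which starts polyamine synthesis and is known as a growth-linked enzyme, was lower. It had 459 and 443 CPM in sgMif, against 668 and 885 CPM in sgSCR, and 560 and 448 CPM in labelled shMif, against 982 and 866 CPM in shSCR.

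Collagen genes were mostly higher in both systems. Of 22 collagen genes, 15 were positive (23.2% of all genes) and 0 negative (20.7%) in both. Of these 22, 7 were separated higher (4.57%) and DESeq2 called 4 higher (0.901%). Medians were 0.45 with the guide and 0.54 with the hairpin. The guide median was 0.27 without sgSCR 1 and 0.29 without sgMif 1. Col4a5, a basement membrane collagen chain, had 21.4 and 25.7 CPM in sgMif, against 10.6 and 11.3 CPM in sgSCR, and 33.9 and 42.6 CPM in labelled shMif, against 23.1 and 24.1 CPM in shSCR. Col1a1, the main chain of type I collagen, had 8924 and 7342 CPM in sgMif, against 7106 and 6885 CPM in sgSCR, and 5689 and 8589 CPM in labelled shMif, against 1979 and 3587 CPM in shSCR. For Col1a1 the shSCR libraries lay below all others, with shSCR 1 the lowest. The hairpin median of the collagens was 0.34 without shSCR 1 and 0.83 without shSCR 2. The joint median was 0.43 with all libraries, 0.34 without shSCR 1 and 0.46 within the 5 libraries above 1000 CPM. Of 28 proteoglycan and elastic fibre genes, 6 were separated higher (4.57% of all genes), among them the small leucine-rich proteoglycans Ogn and Aspn at joint log2 fold changes of 1.80 ± 0.33 and 1.31 ± 0.26, and the large proteoglycan Vcan at 0.67 ± 0.19. Ogn stood at 1.17 within the 5 libraries above 1000 CPM, and the joint median of this list was 0.26 with all libraries, 0.23 within those 5, 0.07 without shSCR 1 and 0.13 without labelled shMif 2. Its guide median was 0.06, and -0.12 without sgMif 1. Dcn, decorin, stood at -2.18 ± 0.23 with the guide and 0.09 ± 0.22 with the hairpin.

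Of 20 contractile genes, 11 were positive in both systems (23.2% of all genes). Their joint median was 0.39, and it was 0.19 without sgMif 1, 0.46 without shSCR 1 and 0.53 within the 5 libraries above 1000 CPM. The hairpin median was 0.20, but -0.01 without labelled shMif 2 and -0.003 without shSCR 2. Acta2, smooth muscle actin, had 660 and 435 CPM in sgMif, against 106 and 110 CPM in sgSCR, and 147 and 217 CPM in labelled shMif, against 85.1 and 114 CPM in shSCR. The joint difference was 1.60 ± 0.32 on the log2 scale (SE, edgeR adjusted p = 0.180), and Acta2 passed in the guide system (adjusted p = 0.0196), but without any 1 guide library it did not (adjusted p = 0.0744 to 0.149 by edgeR). Myl9, a myosin light chain, had 95.9 and 78.0 CPM in sgMif, against 37.0 and 49.9 CPM in sgSCR, and 55.4 and 74.2 CPM in labelled shMif, against 33.6 and 39.1 CPM in shSCR. Tagln, Smtn and the calponin genes Cnn1 and Cnn2 were separated higher too, making 6 of 20 (4.57% of all genes), while the kinase gene Mylk was separated lower. Vgll3, a cofactor of the TEAD factors, had 53.4 and 52.3 CPM in sgMif, against 25.4 and 31.1 CPM in sgSCR, and 34.0 and 42.6 CPM in labelled shMif, against 5.78 and 7.49 CPM in shSCR. It passed in the hairpin system (adjusted p = 0.00855) and in the mean of the contrasts (adjusted p = 0.0275), at a joint log2 fold change of 1.71 ± 0.32. The hairpin call was lost without shSCR 1 (adjusted p = 0.0615 by edgeR), without labelled shMif 2 (0.0718) and with the system fitted alone (0.173). With 1 library at a time left out, the call in the mean of the contrasts was kept only without shSCR 1 or without shSCR 2. The joint value of Vgll3 was 1.44 without shSCR 1. In the same list of 17 YAP-TEAD genes, 2 were separated higher (4.57% of all genes) and 2 lower (4.18%).

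The 20 genes with the smallest joint p among those with a shared direction and no overlap held 12 that were higher and 8 that were lower with Mif targeted. They were picked by the joint contrast itself, so their values describe them and are not a test. Their joint adjusted p values ran from 0.0616 to 0.138 by edgeR. DESeq2 called 20 of the 20, and the mean of the contrasts called 18, or 20 without shSCR 2, 2 without shSCR 1 and 0 without any 1 of the other 6 libraries. With counts scaled by transcript length the mean of the contrasts called 0 of the 20, and with protein-coding transcripts only it called 12. The lowest p belonged to Ptn (chromosome 6, 36714929 to 36810220, minus strand), the heparin-binding growth factor pleiotrophin. It had 44.3 and 41.0 CPM in sgMif, against 15.6 and 14.1 CPM in sgSCR, and 27.9 and 30.0 CPM in labelled shMif, against 6.33 and 9.99 CPM in shSCR. Every targeted library was above all 4 controls, a joint difference of 3.19-fold, or 1.67 ± 0.17 on the log2 scale (SE; adjusted p = 0.0616 by edgeR). Ptn passed in the guide system (adjusted p = 0.0333, and 0.124 to 0.186 by edgeR without 1 guide library) and not in the hairpin system (adjusted p = 0.0999), and its joint value was 1.53 to 1.78 when 1 library at a time was left out.

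Islr, a surface protein of mesenchymal stromal cells, had 33.6 and 45.7 CPM in sgMif, against 18.3 and 17.1 CPM in sgSCR, and 17.0 and 21.3 CPM in labelled shMif, against 4.51 and 6.09 CPM in shSCR. Itgbl1, a secreted protein with integrin-like repeats, had 16.1 and 19.5 CPM in sgMif, against 10.2 and 10.1 CPM in sgSCR, and 57.5 and 61.4 CPM in labelled shMif, against 29.7 and 25.9 CPM in shSCR. These were joint log2 fold changes of 1.51 ± 0.20 for Islr and 0.96 ± 0.13 for Itgbl1, with the systems apart in level and alike in direction. Fam210b, a mitochondrial protein, and P2ry14, the receptor of UDP-glucose, were higher at 1.04 ± 0.15 and 1.48 ± 0.23.

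Among the lower genes, Ereg, the EGF family ligand epiregulin, had 54.9 and 63.8 CPM in sgMif, against 128 and 151 CPM in sgSCR, and 109 and 72.2 CPM in labelled shMif, against 175 and 175 CPM in shSCR. The joint difference was -1.09 ± 0.15 (SE), and Ereg passed in the guide system (adjusted p = 0.0404, and 0.148 to 0.232 by edgeR without 1 guide library). Daam2, a formin of the Wnt pathway, was lower at -1.48 ± 0.23, and Glrx, the glutaredoxin that removes glutathione from proteins, at -0.95 ± 0.15. Trdc, the constant chain of the delta T cell receptor, was lower at -1.83 ± 0.30, with 7.35 and 3.67 CPM in sgMif, against 11.5 and 22.7 CPM in sgSCR, and 6.59 and 9.24 CPM in labelled shMif, against 36.6 and 27.7 CPM in shSCR. The 12 T cell markers summed to 26.6 and 9.63 CPM in sgMif, against 31.7 and 24.0 CPM in sgSCR, and to 28.0 and 14.3 CPM in labelled shMif, against 12.7 and 12.4 CPM in shSCR. T cell markers were thus not lower in the labelled shMif libraries, unlike Trdc.

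**Figure D4:**
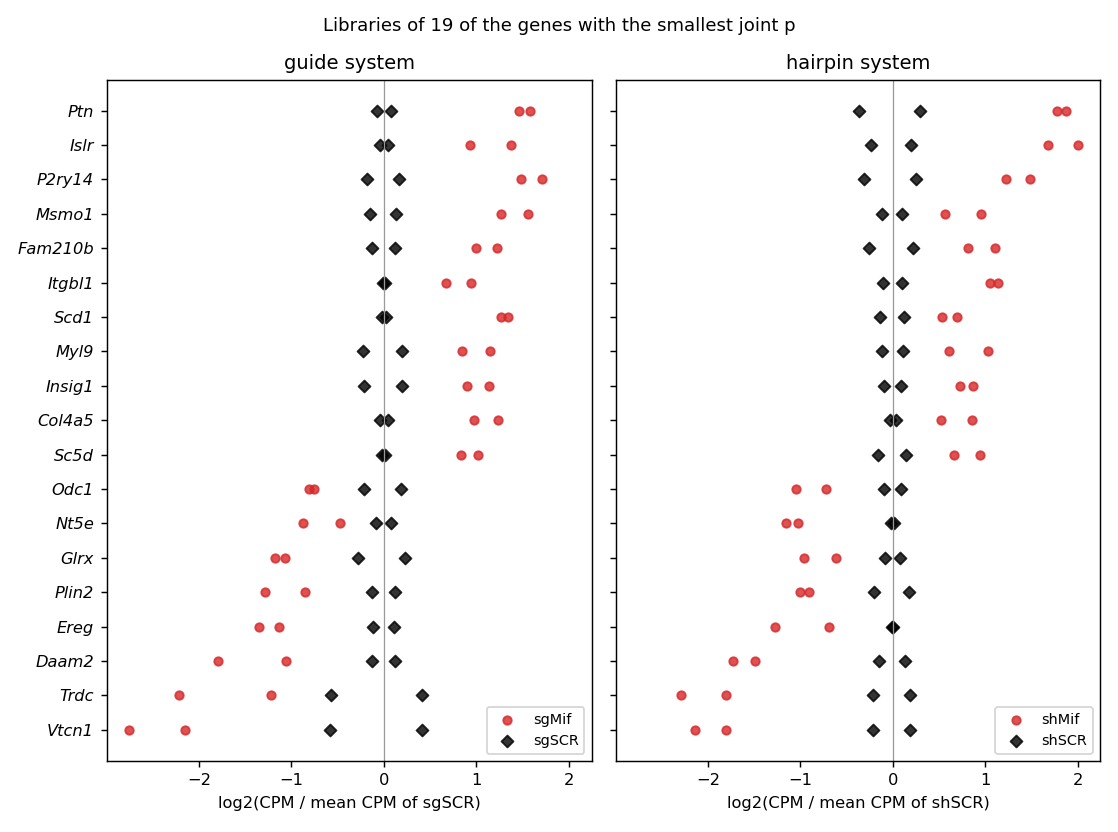
Level of 19 of the 20 genes with the smallest joint p in each library, as the log2 of its CPM over the mean CPM of the control group of the same system, with Mif-targeted libraries as circles and controls as diamonds. In both panels the circles lie on 1 side of the diamonds for every gene drawn, which the choice of these genes required.

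Checkpoint and adenosine genes held 2 of these 20. Vtcn1, the inhibitory ligand B7-H4, had 1.00 and 1.53 CPM in sgMif, against 4.53 and 9.07 CPM in sgSCR, and 1.29 and 1.02 CPM in labelled shMif, against 5.11 and 3.87 CPM in shSCR, a joint difference of -2.19 ± 0.34 at a low level. Nt5e, the enzyme CD73 that makes adenosine, had 75.3 and 57.4 CPM in sgMif, against 99.2 and 111 CPM in sgSCR, and 110 and 101 CPM in labelled shMif, against 222 and 227 CPM in shSCR. Of 18 genes of the checkpoint and galectin list, 4 were separated lower (4.18% of all genes), with Pvr, a ligand of TIGIT, and Cd47, the signal that restrains phagocytosis, beside these. Cd276, the ligand B7-H3, was separated higher at 0.58 ± 0.18. Cd274, the gene of PD-L1, was not separated in the shared direction.

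Genes for signals to myeloid cells had opposite signs in the systems at about the share of all genes. Of 34 tested, 19 had opposite signs, against 56.1% of all genes, 2 were separated higher (4.57%) and 5 lower (4.18%), and 3 passed the test of a difference between the systems (0.092% of all genes), and the medians were -0.73 with the guide and 0.41 with the hairpin. Csf3, the granulocyte growth factor G-CSF, had 0.137 and 0.113 CPM in sgMif, against 0.679 and 1.69 CPM in sgSCR, and 0.103 and 0.228 CPM in labelled shMif, against 2.83 and 0.949 CPM in shSCR, which rests on few reads. Spp1, osteopontin, had 774 and 700 CPM in sgMif, against 1021 and 1231 CPM in sgSCR, and 1133 and 1157 CPM in labelled shMif, against 1678 and 1569 CPM in shSCR. The neutrophil chemokine Cxcl1 was separated lower, and Cx3cl1, the ligand of CX3CR1, and Tgfb3 were separated higher. Ptges, which makes prostaglandin E2, was separated lower at -0.95 ± 0.19. Of 15 genes for prostaglandin synthesis and breakdown, 3 were separated lower (4.18% of all genes) and 0 higher (4.57%). Of 25 genes for matrix proteases and inhibitors, 5 were separated lower (4.18% of all genes), 2 were separated higher (4.57%) and 13 had opposite signs (56.1%). Mmp10 and Mmp3, the stromelysins, were separated lower at -2.43 ± 0.65 and -2.82 ± 0.59. Mmp3 varied widely among the controls, with 27.8 and 8.86 CPM in sgMif, against 92.0 and 336 CPM in sgSCR, and 23.2 and 27.2 CPM in labelled shMif, against 157 and 57.3 CPM in shSCR.

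Markers of macrophages and genes of the ATF4 stress program mostly had opposite signs. The 23 macrophage markers summed to 264 and 229 CPM in sgMif, against 742 and 401 CPM in sgSCR, and to 829 and 423 CPM in labelled shMif, against 424 and 498 CPM in shSCR. Of these markers 20 had opposite signs in the systems (56.1% of all genes) and 0 were separated the same way (8.75%), while 0 passed the test of a difference (0.092%). The 16 genes of alternatively activated macrophages summed to 54.7 and 63.6 CPM in sgMif, against 502 and 251 CPM in sgSCR, and to 248 and 161 CPM in labelled shMif, against 187 and 163 CPM in shSCR. Mrc1, the mannose receptor, had 2.01 and 5.59 CPM in sgMif, against 107 and 34.0 CPM in sgSCR, and 18.8 and 13.9 CPM in labelled shMif, against 15.5 and 12.4 CPM in shSCR. Of 15 tested genes of alternatively activated macrophages, 10 had opposite signs (56.1% of all genes) and 5 were negative in both systems (20.7%). Of these 15, 2 were separated lower (4.18%) and DESeq2 called 1 lower (0.816%). The part of macrophage RNA in the myeloid signal genes was not tested. Of 24 ATF4 targets, which answer amino acid shortage, 21 had opposite signs (56.1% of all genes) and 1 passed the test of a difference (0.092%). Their medians were -0.67 with the guide and 0.28 with the hairpin. The lower ATF4 genes of sgMif were thus not matched by the libraries labelled shMif. Host skin fibroblast markers, which sarcoma cells of mesenchymal origin can also express, summed to 905 and 808 CPM in sgMif, against 2061 and 1841 CPM in sgSCR, and to 1386 and 1414 CPM in labelled shMif, against 1386 and 1357 CPM in shSCR.

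**Figure D5:**
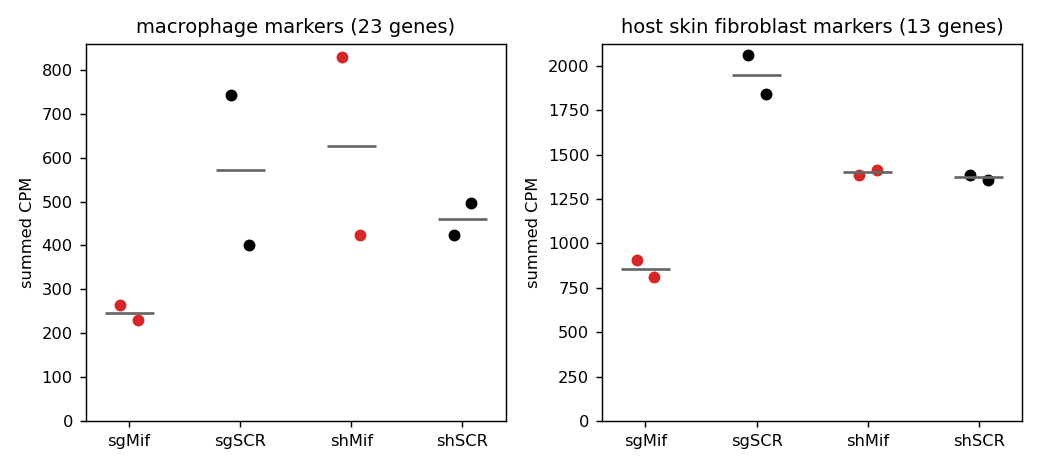
Summed CPM of macrophage markers (left) and host skin fibroblast markers (right) in each library, with Mif-targeted groups in red, controls in black and a line at the mean of 2 libraries. Both sums were lower in sgMif than in sgSCR, and in neither panel were both labelled shMif libraries below both shSCR libraries.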

How the data were processed

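The 8 libraries are total RNA of sorted tumour cells. Trimmomatic, Salmon and the build mm10 were used, per the submitters' processing notes. Their versions and options, the library kit and strandedness are not stated in the sources used here. Per the file headers, the authors' tables hold an estimated count (NumReads) and a TPM value for each of 116546 transcripts. The authors' TPM values scale reads by effective length and were not used in any comparison. Transcripts were joined to genes through GENCODE M21, where 115977 matched, and the estimated counts were summed over 35498 genes and rounded to whole numbers. The 569 unmatched transcripts held at most 0.205% of reads and were left out.

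Genes were kept by filterByExpr (minimum count 10, minimum total 15), which left 16309, scaled by TMM and tested with edgeR 4.0.16 in R 4.3.3. The joint effect came from a fit of system and Mif status, with 5 residual degrees of freedom. The effects within systems, their mean and their difference came from a fit of 4 group means, with 4. P-values were adjusted by Benjamini-Hochberg over all genes tested at 0.05, and "passed" means under it. CPM values were computed here, cannot be compared between genes of unlike length, and are normalised within this set. Each group held 2 libraries; the labels do not say whether these were separate mice, so p-values cover only the spread between libraries of a group, and that spread may be technical.

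Genes named are Mif, the 20 with the smallest joint p among those whose mean log2 CPM was 1 or more, with a shared sign and no overlap in either system (0 passed, and 2 predicted genes or pseudogenes were skipped), the 5 highest and 5 lowest called differences between the systems, and up to 4 members per list; other members were named after their values were seen. The members and the 47 lists of 846 genes were chosen with earlier results of these data known. Lists are described by counts and medians, with no test of a list. Some sterol genes are counted there and are not reported here by name. Overlapping, antisense or near-identical genes may share reads. Promoter windows are from RefSeq on GRCm38.p6, and only the 250 bases before each start were used.

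Alternatives were DESeq2 1.42.0, other size factors, no filter, protein-coding transcripts, scaling of counts by transcript length, a block for the replicate number, the mean of both contrasts, each system alone, library class as a term or only the 5 libraries above 1000 CPM over olfactory receptor genes, and leaving out each library. The fits were tested on simulated counts.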

Additional observations from a re-analysis of the deposited data

Results flagged for a closer look

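The test of a difference between the effects of the systems passed for 15 genes by edgeR, 1 positive and 14 negative (0.092% of all genes). It is the log2 fold change of sgMif over sgSCR minus that of labelled shMif over shSCR. The 5 highest and 5 lowest were named by rule. In 14 of the 15 the signs in the systems were opposite (56.1% of all genes), which the choice of genes by this difference favours. For Rgs17 and Cth the hairpin value did not exceed its SE, at 0.03 ± 0.14 and 0.17 ± 0.20, so a reversed effect was not shown there.

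Nes, the intermediate filament nestin, differed by 1.48 (adjusted p = 0.0487), with 335 and 333 CPM in sgMif, against 183 and 164 CPM in sgSCR, and 328 and 369 CPM in labelled shMif, against 489 and 524 CPM in shSCR. Rgs17, a regulator of G protein signalling, differed by -1.76, with 9.95 and 8.68 CPM in sgMif, against 29.95 and 31.9 CPM in sgSCR, and 61.6 and 61.8 CPM in labelled shMif, against 64.0 and 56.8 CPM in shSCR. Lox, the collagen cross-linking oxidase, differed by -1.91, with 555 and 491 CPM in sgMif, against 1078 and 1233 CPM in sgSCR, and 726 and 667 CPM in labelled shMif, against 369 and 450 CPM in shSCR. Fbln5, a protein of elastic fibres, differed by -2.31. Cth, which makes cysteine, differed by -2.64, with 8.49 and 6.94 CPM in sgMif, against 40.3 and 45.2 CPM in sgSCR, and 6.49 and 7.42 CPM in labelled shMif, against 6.15 and 6.22 CPM in shSCR.

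The other 5 had a group with little expression. Ccn5, a matricellular protein, differed by -4.16, with 22.8 and 23.6 CPM in sgMif, against 39.3 and 26.0 CPM in sgSCR, and 18.3 and 23.8 CPM in labelled shMif, against 1.82 and 1.51 CPM in shSCR. Rarres2, which encodes chemerin, differed by -5.04, with 3.97 and 2.28 CPM in sgMif, against 47.6 and 32.6 CPM in sgSCR, and 10.5 and 5.29 CPM in labelled shMif, against 3.03 and 3.13 CPM in shSCR. The neutrophil chemokine gene Cxcl5 differed by -7.68, and Chil3, which encodes the macrophage lectin Ym1, by -8.35. Cdsn, corneodesmosin of the epidermis, differed by -9.27, a value that rests on 0 and 0.0202 CPM in shSCR. Keratinocyte markers summed to 2.88 and 4.15 CPM in sgMif, against 16.3 and 20.3 CPM in sgSCR. In the hairpin system they summed to 8.80 and 6.51 CPM in labelled shMif, against 5.99 and 5.45 CPM in shSCR. Macrophage markers were lower in sgMif than in sgSCR. Their sums overlapped in the hairpin system, at 829 and 423 CPM in labelled shMif, against 424 and 498 CPM in shSCR. The part of either cell type in the differences of Cxcl5, Chil3 and Cdsn was not tested. Protein-coding transcripts only and counts scaled by transcript length left 0 of the 15 calls, and leaving out 1 library gave 0 to 169 positive and 0 to 346 negative calls.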

How the results depend on the processing

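Counts are given as higher and lower. For the joint effect (0 and 0), DESeq2 gave 147 and 133, no filter on low counts 237 and 312 of 24467 genes tested, and the mean of the contrasts 32 and 34 (0 to 515 and 0 to 191 without 1 library, added after the values were seen); relative log expression size factors, protein-coding transcripts, length scaling, the library class as a term and the 5 libraries above 1000 CPM gave 0 and 0, and leaving out 1 library gave 0 to 1 and 0. For sgMif against sgSCR (60 and 101), DESeq2 gave 483 and 507, no filter 653 and 841, protein-coding transcripts 39 and 89, length scaling 4 and 11, the system fitted alone 94 and 129, and leaving out 1 library 0 to 158 and 0 to 156. For labelled shMif against shSCR (3 and 0), DESeq2 gave 126 and 49, no filter 395 and 267, length scaling 5 and 0, the system fitted alone 0 and 0 (1054 at an unadjusted p under 0.05), and leaving out 1 library 0 to 580 and 0 to 187, the highest without shSCR 2. For the difference between the systems (1 and 14), DESeq2 gave 271 and 383, no filter 568 and 738, protein-coding transcripts and length scaling 0 and 0 each, and leaving out 1 library 0 to 169 and 0 to 346. The mean of the contrasts gave 2 and 0 with length scaling and 25 and 26 with protein-coding transcripts. Causes were not tested.

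Replicate numbers are shared by the groups, but the labels do not say what a number shares. Same-numbered libraries had correlated deviations, with r of 0.22 within the guide system and 0.30 within the hairpin system. Between the systems r was highest for sgMif with labelled shMif, at 0.505. It was 0.26 for sgSCR with shSCR, 0.22 for sgMif with shSCR and 0.23 for sgSCR with labelled shMif. What these deviations share was not tested. The replicate block within systems gave 0 and 0 for the joint effect, 71 and 192 for the guide, 12 and 2 for the hairpin and 5 and 45 for the difference; the block over both systems gave 0 and 0 for the joint effect.

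The sign of Mif in labelled shMif against shSCR turned to 0.0255 without labelled shMif 2 and to 0.55 without shSCR 2, over a range of -0.59 to 0.55. The 20 genes named from the joint fit kept their direction in every alternative run in which they were tested. Their choice by separation in both systems favours this, so it is not a test of them. Sterol members higher at an unadjusted p numbered 20, and 18 to 22 over all alternatives; for mitosis they numbered 18, and 8 to 25, and for hypoxia 11 were lower, and 8 to 16. Depth limits genes of few reads such as Csf3 and Cdsn; no fit at matched depth was run.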

Other observations

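Several other lists had few members with a shared direction. Of 18 genes of MHC class I presentation, 3 were separated higher in both systems (4.57% of all genes), namely Tapbp, which loads peptides, the immunoproteasome subunit Psmb10 and the trimming peptidase Erap1, at joint log2 fold changes of 0.46, 0.60 and 0.46, and 14 of 18 had opposite signs (56.1%). Of 34 growth factor and receptor genes, Ptn, Pdgfc and the PDGF receptor Pdgfrb were separated higher (4.57% of all genes), and Ereg and Hgf lower (4.18%). Pdgfrb had 307 and 277 CPM in sgMif, against 193 and 194 CPM in sgSCR, and 205 and 270 CPM in labelled shMif, against 168 and 136 CPM in shSCR. Grem1, a secreted BMP antagonist, was separated lower, with 68.6 and 17.7 CPM in sgMif, against 202 and 244 CPM in sgSCR, and 401 and 316 CPM in labelled shMif, against 561 and 481 CPM in shSCR. Dusp4, a phosphatase of ERK, was separated lower at -0.91. Of 29 type I interferon genes, 21 had opposite signs (56.1% of all genes) and 0 were separated the same way (8.75%), and of 30 nuclear genes of the respiratory chain 1 was separated higher (4.57%). These genes were named after their values were seen, and 0 passed the joint edgeR test.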
